A study of Mus musculus with 12 samples.

Results

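Mpeg1, which encodes the macrophage pore-forming protein perforin-2, was described together with 9 genes that lie near it on mouse chromosome 19, some of which are macrophage genes themselves. The 10 genes (Mpeg1, Dtx4, Osbp, Patl1, Stx3, Fam111a, Ms4a6b, Ms4a6c, Ms4a6d and Ms4a7) were taken by symbol from the 54232 gene rows of the count table. Mpeg1 was chosen by its measured counts in these same libraries, which were lower in mutant than in wild-type cortex. Its difference between genotypes is therefore a description. Whether it passed the threshold is stated where calls are counted and supports nothing, since the same values chose it. The other 9 were taken for their position or their expression in macrophages. The question is whether the lower level of Mpeg1 is shared by the genes around it, by macrophage genes in general, or by neither.

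The samples are cortices of C57BL/6J mice aged 12 weeks. The mutant group holds 6 mice homozygous for the Y446C allele of Tbl1xr1 (Tbl1xr1Y446C/Y446C), 3 females and 3 males, and the wild-type group holds 6 mice, also 3 females and 3 males. The protein made from Tbl1xr1 is part of the NCoR corepressor complex, and this allele is a model of Pierpont syndrome. The allele is carried by every cell of these animals, so the libraries cannot place an effect in a given cell type, and the labels do not say whether mutant and wild-type mice were littermates. Whole cortex was measured by messenger RNA sequencing, 1 library per mouse. Each library goes by the sex, genotype and number of its mouse.

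Perforin-2 sits in the vesicles of phagocytes and is delivered to the phagosome, where it punctures the envelope of engulfed bacteria. It belongs to the family of proteins with a MACPF domain, along with perforin-1 of killer lymphocytes and the last components of complement. In the brain Mpeg1 is a gene of microglia, the resident macrophages of the tissue, and of the macrophages at its borders around vessels and in the meninges. The Ms4a genes on the same stretch of the chromosome encode small proteins that span the membrane several times, and Ms4a7 is used as a marker of border macrophages.

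Counts assigned to genes ran from 21238427 to 32669138 in 11 libraries, and the level that 3 counts stand for there was 0.0861 to 0.137 CPM, the unit of expression used below (counts relative to library size, scaled by TMM), which is the most that a count of 0 allows. The exception was female mutant 3, with 3748515 counts and a limit of 1.16 CPM. Mitochondrial genes took 31.6% of its counts, against 5.23% to 10.4% in the other libraries. These limits cover counting error alone. Its values are given separately wherever they decide a result. Microglia genes were well represented in every group: the summed level of 24 microglia markers was 501 to 557 CPM in the wild types against 446 to 531 CPM in the mutants, with none of the 24 at 0 throughout. The lowest sum, 446 CPM, was that of female mutant 3.

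Mpeg1 (ENSMUSG00000046805) lies on the plus strand of chromosome 19 from 12460779 to 12465283 in GRCm38, in 2 exon blocks, and overlaps no other annotated gene. Its nearest neighbour, Dtx4, lies on the minus strand from 12466338 to 12501454, so that the 3′ ends of both genes face each other across 1.055 kb. Fam111a follows at 80.5 kb (12545740 to 12589768). On the other side come Osbp at 467 kb (11965941 to 11994112), Patl1 at 516 kb (11912399 to 11945091) and Stx3 at 641 kb (11775118 to 11819403). The Ms4a genes are farthest, with Ms4a6d at 856 kb (11586604 to 11604849), Ms4a6b at 930 kb (11516512 to 11531256), Ms4a6c at 979 kb (11469366 to 11482192) and Ms4a7 at 1125 kb (11321039 to 11336146).

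The bases before the start of transcription differ in their content of CG between some of these genes. RefSeq promoter sequences (GRCm38.p6) matched 8 of the 10 genes, and the 250 bases before the start are shown for Mpeg1, for Ms4a6c as a macrophage gene and for Osbp as a gene of nearly all cells, 5′ to 3′, with each CG in capitals.
Mpeg1 (chr19:12460520-12460769, plus strand): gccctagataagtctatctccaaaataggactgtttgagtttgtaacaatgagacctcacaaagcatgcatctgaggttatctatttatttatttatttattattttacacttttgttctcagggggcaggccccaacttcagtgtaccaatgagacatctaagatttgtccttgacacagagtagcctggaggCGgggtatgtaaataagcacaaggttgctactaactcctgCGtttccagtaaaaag
Ms4a6c (chr19:11469118-11469367, plus strand): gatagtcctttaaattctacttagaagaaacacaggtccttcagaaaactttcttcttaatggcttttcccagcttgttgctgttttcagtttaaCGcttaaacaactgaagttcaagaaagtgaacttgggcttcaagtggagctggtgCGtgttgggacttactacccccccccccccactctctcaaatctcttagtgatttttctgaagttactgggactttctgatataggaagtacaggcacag
Osbp (chr19:11965594-11965843, plus strand): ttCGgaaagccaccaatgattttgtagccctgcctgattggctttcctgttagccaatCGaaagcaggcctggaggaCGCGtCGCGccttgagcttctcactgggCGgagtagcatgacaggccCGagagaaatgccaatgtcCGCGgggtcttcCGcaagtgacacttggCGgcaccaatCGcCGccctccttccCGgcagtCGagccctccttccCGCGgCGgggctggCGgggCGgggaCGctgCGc
The windows of Mpeg1 and Ms4a6c each held 2 CG and that of Osbp 23. Of 32536 mouse windows of this length, 28.8% held 2 or fewer and 13.4% held 23 or more. Of the other matched genes Patl1 held 24, Fam111a 9, Stx3 6 and Ms4a6b 0, and the 2 listed starts of Ms4a7 held 6 and 1, so the number did not divide macrophage genes from the rest. The G and C content was 40.0% for Mpeg1, 42.4% for Ms4a6c and 64.0% for Osbp. AGGAAG, the core bound by the macrophage factor PU.1, occurred 1 time in the window of Ms4a6c and 0 times in those of Mpeg1 and Osbp, on either strand, against 29.6% of all windows with at least 1. It also occurred 3 times in the window of Ms4a6b and 1 time in those of Patl1 and Fam111a. AGGTCA, the core element of nuclear receptors, occurred 0 times in each of the 3 on either strand, against 14.0% of all windows with at least 1.

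Mpeg1 stood at 23.2, 23.6 and 29.1 CPM in wild-type females 2, 4 and 5 and at 25.9, 26.6 and 26.3 CPM in wild-type males 8, 12 and 13. In the mutants it stood at 13.2, 7.36 and 12.9 CPM in females 1, 3 and 6 and at 10.9, 13.8 and 14.6 CPM in males 7, 10 and 27. All 6 mutants lay below all 6 wild types, with a gap from 14.6 to 23.2 CPM, and the lowest value belonged to the shallow female mutant 3, where it rests on 19 counts. The means were 25.8 ± 2.19 CPM in the wild types against 12.1 ± 2.64 CPM in the mutants (SD, n = 6), a ratio of 0.471, and without female mutant 3 the mutants averaged 13.1 ± 1.37 CPM, a ratio of 0.508. The fitted log2 fold change was -1.05 (95% interval -1.31 to -0.78). Among the 15063 tested genes with a mean of at least 1 CPM, 9 had a lower value.

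**Figure D1:**
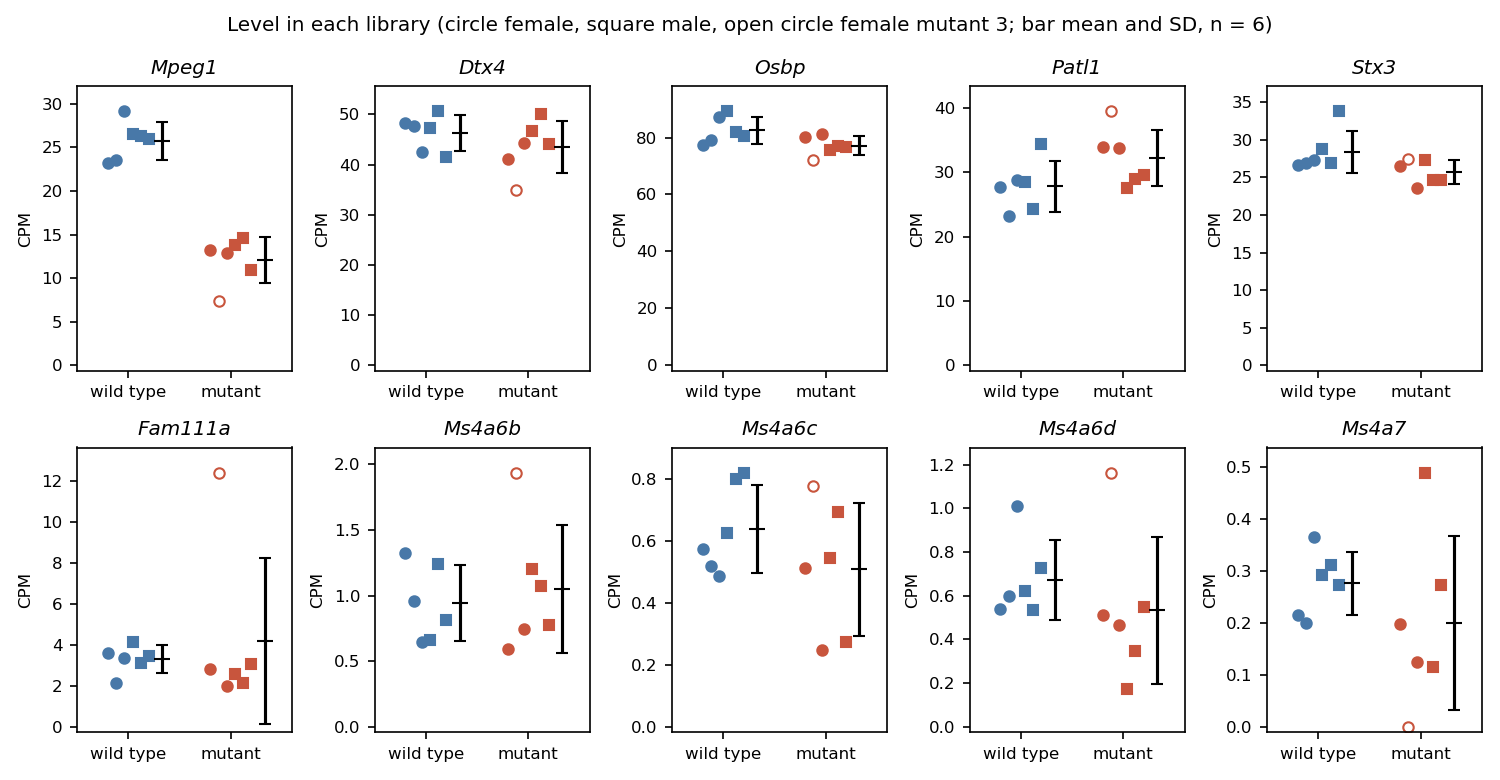
Level of each of the 10 genes in CPM (vertical axis, from 0) in 6 wild-type and 6 mutant libraries, with mean and SD beside the points. For Mpeg1 the mutants lie at 7.36 to 14.6 CPM and the wild types at 23.2 to 29.1 CPM, whereas the groups overlap in the other 9 panels.

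Levels of different genes are compared per length, as RPKM (CPM per kb of exon). In wild-type cortex Osbp stood highest at 18.4 ± 1.04 RPKM (SD, n = 6), followed by Dtx4 at 8.86 ± 0.676, Patl1 at 6.50 ± 0.925, Mpeg1 at 5.95 ± 0.505 and Stx3 at 4.97 ± 0.482 RPKM. The ranges of Dtx4 (7.93 to 9.69 RPKM), Patl1 (5.42 to 8.03), Mpeg1 (5.34 to 6.72) and Stx3 (4.66 to 5.91) overlapped from each gene to the next. Within each wild-type library, however, Mpeg1 stood above Stx3, most narrowly in male wild-type 8 (5.98 against 5.91 RPKM). The order of the others changed between libraries. Patl1 stood below Mpeg1 in female wild-type 4 and male wild-type 13, and Dtx4 stood below Patl1 in male wild-type 8. Fam111a stood at 0.802 ± 0.161 RPKM, and the Ms4a genes lower still, at 0.387 ± 0.104 for Ms4a6d, 0.310 ± 0.0691 for Ms4a6c, 0.210 ± 0.0643 for Ms4a6b and 0.0619 ± 0.0138 RPKM for Ms4a7. Per length, Mpeg1 was the fourth of the 10 genes by mean level, and it stood above each of the 4 Ms4a genes in every wild-type library. In the mutants Mpeg1 stood at 2.80 ± 0.609 RPKM, below Stx3 at 4.50 ± 0.288 RPKM.

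Of the 10 genes, 9 passed the filter on low counts, and Ms4a7 did not. Over both sexes, 0 of the 8 tested neighbours passed edgeR's quasi-likelihood test (adjusted p = 0.950 to 0.994 after Benjamini-Hochberg adjustment over 18016 genes), and 0 had an unadjusted p under 0.05, beside 3.96% of all genes. That second count depends on female mutant 3: without it, Stx3, Fam111a and Ms4a6d had an unadjusted p under 0.05 in edgeR's test, all 3 lower in mutants, beside 7.46% of all genes. Their adjusted p in that edgeR fit was 0.598 to 0.611, so 0 of the 8 passed there too. With limma-voom and library weights 3 of the 8 had an unadjusted p under 0.05, and with scaling by library totals 2 did. DESeq2 and limma-voom, with or without library weights, called 0 of the 8 as well. Of the 9 tested genes only Mpeg1, the one picked for this difference, was past the threshold, and over all genes the share called was 0.00555%. The call of Mpeg1 was lost when any 1 library other than female mutant 3 was left out, while its log2 fold change stayed between -1.09 and -0.98 over all 12 omissions. Of the 8 neighbours 7 were lower and 1 was higher in mutants. Their median log2 fold change was -0.09, beside 52.4% lower and a median of -0.01 over all tested genes.

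Dtx4, an E3 ubiquitin ligase of the Deltex family that acts on Notch signalling, is the closest gene. It stood at 48.3, 47.6 and 42.6 CPM in wild-type females 2, 4 and 5 and at 41.5, 47.3 and 50.6 CPM in wild-type males 8, 12 and 13. In the mutants it stood at 41.1, 34.9 and 44.3 CPM in females 1, 3 and 6 and at 44.2, 46.6 and 50 CPM in males 7, 10 and 27. The groups overlapped over most of their range, with means of 46.3 ± 3.53 and 43.5 ± 5.17 CPM (SD, n = 6) and the lowest mutant again the shallow library. The log2 fold change was -0.09 (SE 0.09, 95% interval -0.27 to 0.10, edgeR adjusted p = 0.950). Divided within each library by the level of Dtx4, Mpeg1 stood at 0.480 to 0.684 in the wild types and 0.211 to 0.322 in the mutants, which restates the difference that chose Mpeg1 on the scale of its neighbour.

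Osbp, which carries cholesterol and phosphoinositides between the endoplasmic reticulum and the Golgi, stood at 77.5 to 89.2 CPM in wild-type mice (median 81.2) and at 72.0 to 81.4 CPM in mutants (median 76.8). Its mutant values lay in the lower part of the wild-type range, and the log2 fold change was -0.10 (95% interval -0.24 to 0.05, edgeR adjusted p = 0.950). Patl1, a scaffold of messenger RNA decay in P-bodies, was the 1 neighbour with a higher fitted level in mutants, at 27.6 to 39.5 CPM (median 31.7) against 23.3 to 34.5 CPM (median 28.2), with a log2 fold change of 0.19 (95% interval -0.06 to 0.44, edgeR adjusted p = 0.950). The 3 mutant females, at 34.0, 39.5 and 33.8 CPM, stood above the 3 wild-type females, at 27.8, 23.3 and 28.9 CPM, while the males overlapped. In females alone the log2 fold change of Patl1 was 0.41, with an unadjusted p of 0.0137, beside 11.8% of all genes under 0.05 in that contrast, and an edgeR adjusted p of 0.418. The difference between the sexes in the genotype effect of Patl1 did not pass edgeR's test (adjusted p = 0.555). Stx3, a syntaxin of the SNARE machinery of vesicle fusion, stood at 26.6 to 33.8 CPM in wild-type mice (median 27.1) and at 23.6 to 27.5 CPM in mutants (median 25.6). The highest value came from male wild-type 8, and the log2 fold change was -0.15 (95% interval -0.33 to 0.03, edgeR adjusted p = 0.950).

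Fam111a, a protease gene linked to DNA replication and to the restriction of viruses, depended on 1 library. It stood at 2.16 to 4.16 CPM in wild-type mice, and at 2.83, 12.4 and 2.02 CPM in mutant females 1, 3 and 6 and 3.05, 2.58 and 2.15 CPM in mutant males 7, 10 and 27. The value of female mutant 3, 12.4 CPM, rests on 32 counts, and the next mutant stood at 3.05 CPM. The log2 fold change was -0.05 with it (95% interval -0.84 to 0.75, edgeR adjusted p = 0.993) and -0.41 without it (95% interval -0.77 to -0.04, edgeR adjusted p = 0.601). An antisense transcript and a pseudogene lie on the other strand within Fam111a and share 592 of its 4125 exon bases, and no source used here states whether strand was used in counting, so its counts are uncertain.

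The macrophage genes of the Ms4a cluster were read at low depth. Ms4a6d stood at 0.537, 0.599 and 1.01 CPM in wild-type females 2, 4 and 5 and at 0.727, 0.624 and 0.533 CPM in wild-type males 8, 12 and 13, against 0.511, 1.16 and 0.465 CPM in mutant females 1, 3 and 6 and 0.546, 0.172 and 0.346 CPM in mutant males 7, 10 and 27. The value of female mutant 3 equals 3 counts. Of the other 5 mutants, only male mutant 7 lay above the lowest wild type. The counts summed to 98 in wild-type and 58 in mutant mice, and the log2 fold change was -0.63 (95% interval -1.33 to 0.05, edgeR adjusted p = 0.950), or -0.72 without female mutant 3 (95% interval -1.38 to -0.07, edgeR adjusted p = 0.611). Ms4a6c ranged from 0.486 to 0.818 CPM in wild-type and from 0.248 to 0.774 CPM in mutant mice, with sums of 92 and 66 counts and a log2 fold change of -0.47 (95% interval -1.08 to 0.13, edgeR adjusted p = 0.950).

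Ms4a6b ranged from 0.647 to 1.32 CPM in wild-type and from 0.590 to 1.94 CPM in mutant mice, with sums of 139 and 131 counts and a log2 fold change of -0.03 (95% interval -0.66 to 0.59, edgeR adjusted p = 0.994), and its sign turned when any of 5 libraries was left out. Ms4a7 was too low to be tested, with 5 to 9 counts in each wild-type library and 0 to 17 in each mutant library, and sums of 40 and 35 counts. The 3 members Ms4a6b, Ms4a6c and Ms4a6d are related in sequence. No run of 150 bases, the read length, is shared exactly with a transcript of another gene, but 3.57%, 10.5% and 2.54% of their runs of 50 bases are, so the counting could have placed part of a fragment with a relative. An annotated transcript on the other strand shares 1088 of the 2050 exon bases of Ms4a6c, so its counts are uncertain for that reason too. Of the 19 Ms4a genes in the table, 3 were tested and 4 had no count in any library.

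The intervals were set against -1.05, the point value of Mpeg1, a gene picked for its low level. Its own 95% interval was -1.31 to -0.78. For 6 of the 8, Dtx4, Osbp, Patl1, Stx3, Fam111a and Ms4a6b, the whole 95% interval lay above -1.05. For Ms4a6c and Ms4a6d the interval reached past -1.05, so that at their depth a difference of that size was not separated from no difference. The interval of Fam111a reached -0.84, inside that of Mpeg1, so these 2 genes are not set apart by their intervals. None of the 8 separated the genotypes, against 0.438% of all 18016 tested genes in which the libraries of both groups did not overlap (0.294% with the mutants lower, as for Mpeg1).

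**Figure D2:**
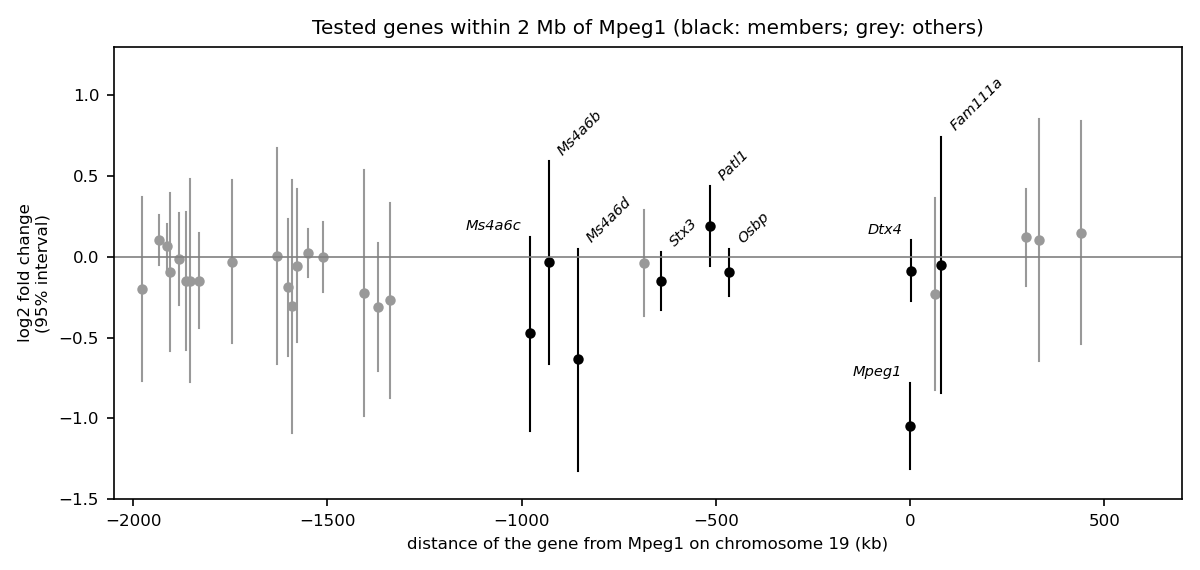
Log2 fold change of mutant over wild type with its 95% interval (vertical axis) for each tested gene within 2 Mb of Mpeg1, by distance in kb (horizontal axis). Mpeg1 at -1.05 stands below Dtx4 at -0.09 and Fam111a at -0.05, its nearest neighbours among the 10 genes, and all other points lie between -0.63 and 0.19.

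The wider stretch of chromosome 19 was also read. Within 1 Mb to either side of Mpeg1 lie 113 other annotated genes, 59 of them olfactory receptor genes by name, and 73 of the 112 in the table had no count in any library. Of the 13 that were tested, 4 were higher and 9 lower in mutants. The median log2 fold change was -0.05, and 0 passed edgeR's test (lowest unadjusted p = 0.0669, for Ms4a6d). Gm6545, a processed pseudogene at 63.5 kb, was the nearest tested gene after Dtx4. It averaged 1.55 ± 0.280 CPM in the wild types against 1.66 ± 1.28 CPM in the mutants (SD, n = 6). Its fitted log2 fold change was -0.23 (SE 0.27, edgeR adjusted p = 0.950). Gm6545 therefore counts among the 9 lower genes, although its mean CPM was higher in the mutants. Within 0.5 Mb the median of 7 tested genes was -0.05, and within 2 Mb that of 31 was -0.09.

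The genes that mark microglia gave the second comparison. Of 24 tested markers 5 were higher and 19 lower in mutants. Their median log2 fold change was -0.07, 0 passed edgeR's test, and 1 had an unadjusted p under 0.05. Without female mutant 3 the count was 10 higher and 14 lower, with a median of -0.05. The lowest log2 fold change among them was -0.36, for Trem2, and the 95% interval of each of the 24 lay above -1.05. In bulk tissue, fewer cells of a type and less RNA per cell cannot be told apart.

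Abundant markers show how the list sat beside Mpeg1. Ctss, the lysosomal protease cathepsin S, averaged 44.5 ± 3.49 CPM in the wild types against 43.0 ± 5.43 CPM in the mutants (SD, n = 6). Csf1r, the receptor on whose signal microglia depend, stood at 69.2 ± 3.87 and 59.9 ± 17.2 CPM, with a lowest mutant value of 26.3 CPM. P2ry12, a nucleotide receptor that steers microglial processes, stood at 38.7 ± 7.66 and 52.6 ± 29.5 CPM. The edgeR adjusted p of these 3 was 0.950 to 0.952, and the wide SD of Csf1r and P2ry12 in mutants belongs to a group that includes female mutant 3.

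The mean log2 CPM of the 24 markers was 3.74 to 3.92 in wild-type libraries and 3.75 to 3.85 in 5 mutant libraries, with female mutant 3 at 3.07. Taking that mean from the log2 CPM of Mpeg1 within each library left 0.78 to 0.95 in the wild types and -0.33 to 0.05 in the mutants. The mean difference was -0.97, or -0.95 without female mutant 3, beside -1.05 for the fitted change of Mpeg1 that chose it. In female mutant 3 the mean log2 CPM of the markers was low together with Mpeg1, and the difference left there, -0.17, lay within the range of the other mutants. The summed level of the markers there was 446 CPM, against 501 to 557 CPM in the wild types. That is a smaller gap than on the mean log2 scale, where markers with few counts weigh as much as abundant ones.

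**Figure D3:**
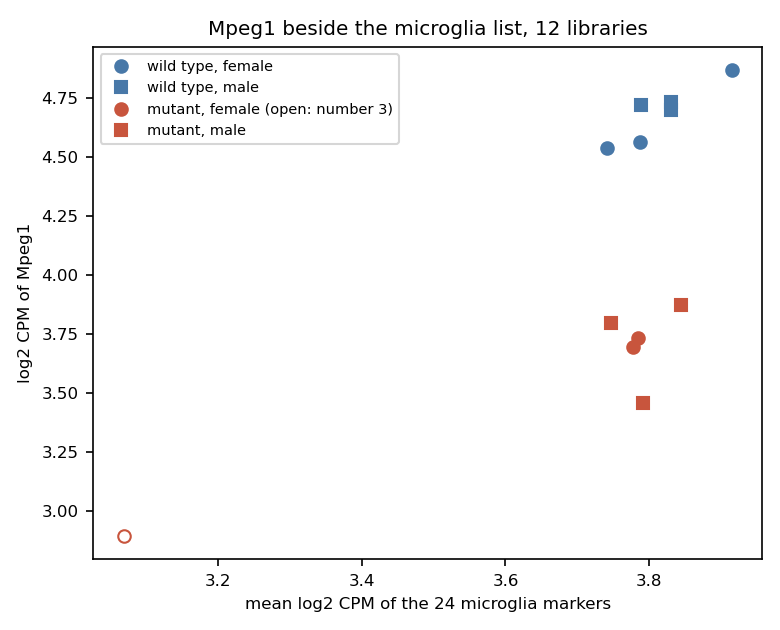
Log2 CPM of Mpeg1 (vertical axis) against the mean log2 CPM of 24 microglia markers (horizontal axis) in 12 libraries. At like marker levels of 3.74 to 3.92, the 6 wild types lie above the 5 mutants, and female mutant 3 lies apart at 3.07.

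Markers of border macrophages gave 6 tested genes of 12, of which 3 were higher and 3 lower, a median log2 fold change of 0.03 and 0 called by edgeR (0 at an unadjusted p under 0.05). Leaving out 1 library moved that median to between -0.04 (without male wild-type 12) and 0.14 (without male wild-type 8). The summed level of the list was 40.7 to 54.5 CPM in the wild types against 46.6 to 56.6 CPM in the mutants. Its mean was 47.8 and 50.8 CPM, and Maf alone made up most of it (28.8 and 32.4 CPM). The sum therefore mainly reflects Maf and does not measure border macrophages as such. Mrc1, the mannose receptor, stood at 3.97 ± 1.53 and 3.55 ± 0.998 CPM (SD, n = 6), and Stab1, a scavenger receptor, at 10.6 ± 0.977 and 10.2 ± 3.22 CPM. Maf, a transcription factor that is not restricted to macrophages, stood at 28.8 ± 3.15 and 32.4 ± 3.12 CPM, and F13a1, a transglutaminase subunit, at 1.37 ± 0.433 and 1.35 ± 0.770 CPM. The 95% interval of each of the 6 lay above -1.05. The lowest bound was -0.93, for Cd163, inside the 95% interval of Mpeg1 (-1.31 to -0.78). Set against this list, Mpeg1 differed by -1.12 on the log2 scale. Markers of other tissue differed in level between the groups without passing the test: the 12 striatal markers summed to 659 to 2349 CPM in the wild types against 344 to 1495 CPM in the mutants, all 12 had a lower fitted level in mutants, and 0 were called. Their part in the level of Mpeg1 was not tested.

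**Figure D4:**
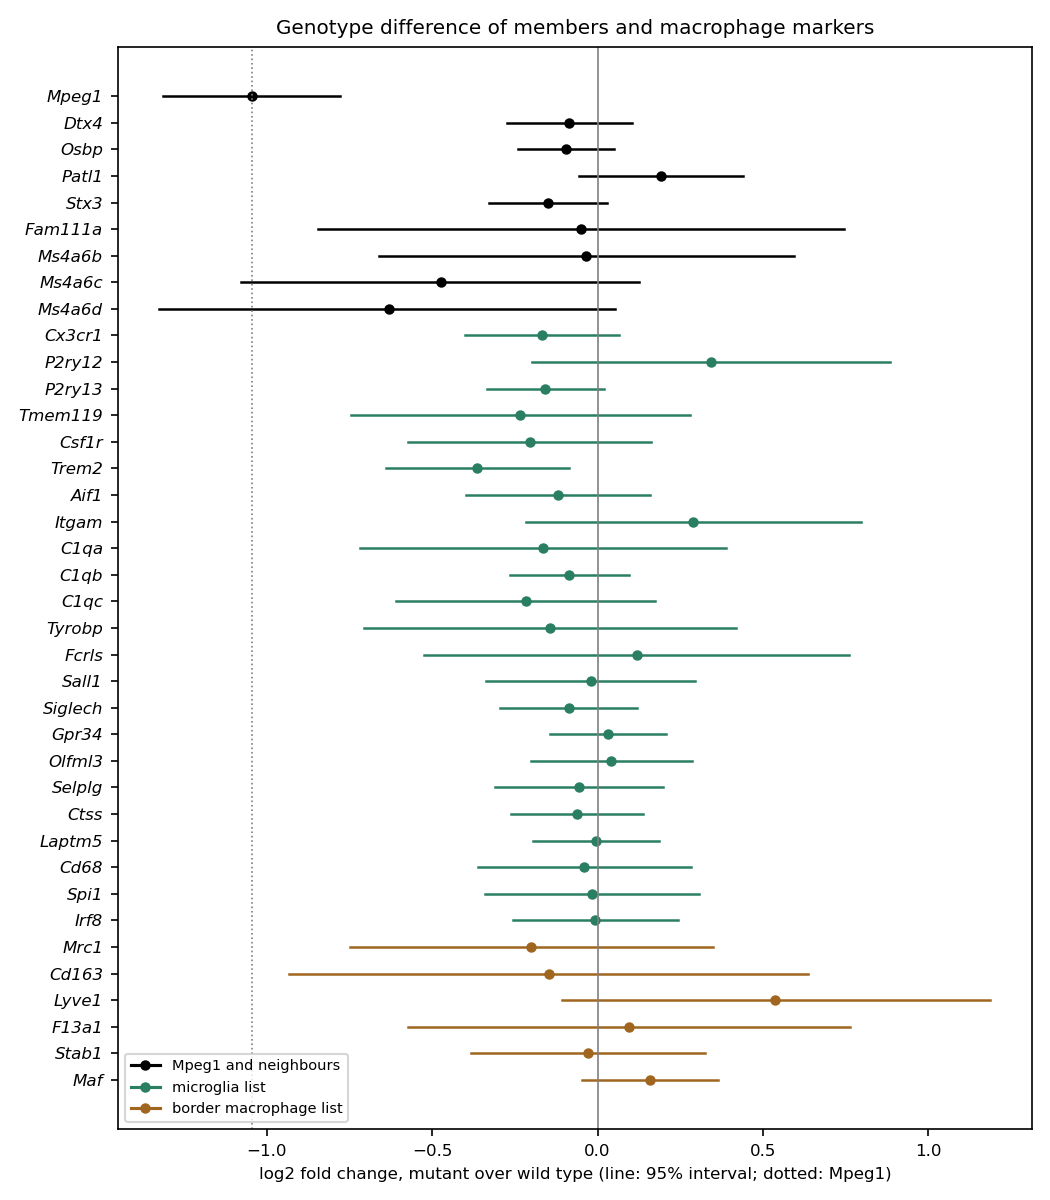
Log2 fold change of mutant over wild type with its 95% interval (horizontal axis) for the 9 tested genes of the set, 23 of the 24 microglia markers and 6 border macrophage markers. The dotted line marks Mpeg1 at -1.05, and among the others only the intervals of Ms4a6c and Ms4a6d reach it.

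Genes that share the setting or the protein family of Mpeg1 were looked at as well. Of 14 genes of bacterial killing in phagocytes 12 were tested, 4 higher and 8 lower, their median log2 fold change being -0.21, 0 called by edgeR and 1 at an unadjusted p under 0.05. The lysozyme gene Lyz2 averaged 4.81 ± 0.937 CPM in the wild types against 3.19 ± 2.06 CPM in the mutants, the interferon-induced GTPase genes Irgm1 at 9.08 ± 0.506 and 8.09 ± 1.80 CPM and Irgm2 at 4.86 ± 1.17 and 5.52 ± 1.76 CPM, and Ncf1, a subunit of the phagocyte oxidase, at 4.75 ± 0.299 and 6.70 ± 3.95 CPM (SD, n = 6; edgeR adjusted p = 0.950 for each). Single mutants weighed on these means: Ncf1 ran from 4.65 to 14.7 CPM in the mutants, and the lowest mutant value of Lyz2 was 0 CPM. Female mutant 3 is among those mutants, and its part in these means was not tested. The lowest log2 fold change of that list was -0.79, for the oxidase subunit gene Cybb. Of 11 other MACPF genes 6 were tested, 4 higher and 2 lower, with a median of 0.01 and 0 called (0 at an unadjusted p under 0.05). Their most abundant members are genes of neurons and not of macrophages: Astn1 stood at 378 ± 10.1 and 376 ± 36.5 CPM, Brinp1 at 209 ± 16.5 and 213 ± 48.4 CPM, Brinp2 at 91.5 ± 7.75 and 85.9 ± 21.5 CPM and Astn2 at 44.9 ± 2.74 and 46.9 ± 8.32 CPM.

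Sex was not used to choose the genes. Mpeg1 stood at 25.3 ± 3.34 CPM in wild-type females and 26.3 ± 0.333 CPM in wild-type males, and at 11.1 ± 3.29 and 13.1 ± 1.93 CPM in mutant females and males (SD, n = 3). The log2 fold change between genotypes was 0.09 higher in males than in females (95% interval -0.46 to 0.63, edgeR adjusted p = 0.885). For the genotype by sex difference 0 of the 9 tested members passed edgeR's test (0% of all genes, adjusted p = 0.555 to 0.973). In that test 0 had an unadjusted p under 0.05, beside 1381 of all 18016 genes. That second count depended on the setting: it was 1 with RLE scaling and 1 with the filter of 1 CPM in 6 libraries. For sex itself 0 of 9 passed as well (0.0389% of all genes, adjusted p = 0.897 to 0.988). An unadjusted p under 0.05 in edgeR's test was found for 0 of them, beside 319 of all 18016 genes. DESeq2 and limma-voom called 0 members in both comparisons. The difference of Mpeg1 between the sexes was 0.10 on the log2 scale, male over female (95% interval -0.17 to 0.37).

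Likeness to Mpeg1 over the libraries was read as a description. Over all 12 libraries the genes with the highest Pearson correlation of log2 CPM with Mpeg1, among 15062 genes with a mean of at least 1 CPM, were Adgrg6 (r = 0.927), Cyp4f15 (0.912), Bco2 (0.910), Masp1 (0.908) and Lsp1 (0.900). For deviations from the 4 group means they were Mcm5 (0.979), Stom (0.958), Slc25a53 (0.948), Mrm3 (0.945) and Ccdc106 (0.945). None of the 10 is in the set or in the macrophage lists. Lsp1 is in the list named other leukocytes, with a log2 fold change of -0.91 (edgeR adjusted p = 0.659). The 5 tested genes of that list were Ptprc, Ccr2, Itgal, Lsp1 and Coro1a. Whether macrophages of the cortex also express them was not tested. Of the neighbours Osbp had the highest r over 12 libraries (0.740), and Dtx4 had 0.546. Without female mutant 3 the order changed: r was 0.637 for Stx3, 0.629 for Ms4a6c, 0.617 for Osbp, 0.609 for Ms4a6d, 0.552 for Fam111a and 0.165 for Dtx4. With that library, r had been 0.459 for Stx3, 0.286 for Ms4a6c, 0.0971 for Ms4a6d and -0.338 for Fam111a. All of these points share their library's depth and scaling.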

How the data were processed

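Cortex messenger RNA of 12 mice was sequenced. Per the submitters' processing notes, Trimmomatic 0.36, HISAT2 2.1.0, HTSeq 0.11 and Cufflinks were used with GRCm38.p6; for the annotation release and the strand setting, they are not given in any sources used here. The authors deposited 1 table of raw, whole-number counts, with no rows for unassigned reads, and 54165 of 54232 identifiers matched GENCODE M21.

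Here, 18016 genes passed filterByExpr with the 4 sex-by-genotype groups. The quasi-likelihood fit of edgeR 4.0.16 under R 4.3.3, after TMM scaling, held terms for sex and genotype, or 1 mean per group where effects within a sex or their contrast were needed. Benjamini-Hochberg adjustment covered all 18016 genes, and the threshold was 0.05. Intervals come from the same fit, log2 CPM used a prior count of 2, and RPKM used the union of exons. DESeq2 1.42.0 and limma 3.58.1 served as alternatives, and the edgeR fit was tested on simulated data. Libraries are separate mice, and no 2 libraries of a group agreed within counting error (chi-square per degree of freedom 9.01 to 153).

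The members, lists and tests were chosen with earlier results of these data known. Genes named are the 10 members, the 3 nearest tested genes on each side of Mpeg1, the 4 most abundant tested genes of each macrophage list and the 5 genes of highest correlation with Mpeg1. A gene that the rule names is not reported here. Trem2, Cybb, Slc11a1, Cyba and Cd163 were named after their values were seen. Added after the data were seen were the likeness without female mutant 3, the ratio to Dtx4, and the alternatives for the window and list medians.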

Additional observations from a re-analysis of the deposited data

Results flagged for a closer look

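In the group of 6 mutants, Fam111a in female mutant 3 stood at 12.4 CPM, with the next library at 3.05 CPM, a gap that is 0.900 of the group's whole range. Among the 6 wild types, Stx3 in male wild-type 8 stood at 33.8 CPM, with the next library at 28.8 CPM, a gap of 0.691 of the range. Each exceeded the limit of Dixon's test for 6 values, which chance passes in about 1 of 20 groups. Female mutant 3 is the library of lowest depth, and the part of depth in its Fam111a value was not tested.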

How the results depend on the processing

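No paired analysis was possible because no mouse number occurs in both genotypes. Over all alternatives run the log2 fold change of Mpeg1 ran from -1.11 to -0.98, and 0 neighbours were called under any of them. Genes called over both sexes numbered 1 in the reported fit, 29 with DESeq2, 22 with limma-voom and library weights, 0 with scaling by library totals (which then called 0 members) and 0 to 2 when 1 library was left out, with 0 to 1 members called. For the genotype by sex difference, 0 genes became 4 with DESeq2, 1 with library weights, 1 with no filter and 0 to 1 without 1 library. For sex, 7 became 12 with DESeq2. In females, 0 became 4 with library weights and 2 with no filter, with 1 member (Mpeg1) called by the former, and DESeq2 gave the members no adjusted p there. In males, 0 became 4 with DESeq2 and 1 with library weights, each calling 1 member (Mpeg1), and 0 to 1 without 1 library, with 0 to 1 members. Mpeg1 relative to the border macrophage list in place of the microglia list differed by -1.12 against -0.97. Fam111a turned to 0.13 with DESeq2 and ran from -0.41 to 0.11 with 1 library left out, and Ms4a6b from -0.14 to 0.12. The cause of these shifts was not tested. Depth limits the 4 Ms4a genes, and the filter of 1 CPM in 6 libraries left Ms4a6c and Ms4a6d untested.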

Other observations

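Without female mutant 3, an alternative chosen after seeing the data, the genes most like Mpeg1 over 11 libraries were Cyp11a1 (r = 0.952), C1ra (0.949), Hnmt (0.943), Ptgs1 (0.922) and Fcgr2b (0.904), none of which was among the first 5 over 12 libraries. Cyp11a1 encodes the enzyme that starts steroid synthesis, C1ra a protease of the classical complement pathway, Hnmt the enzyme that methylates histamine, Ptgs1 cyclooxygenase-1 and Fcgr2b the inhibitory Fc receptor of macrophages. Hnmt stood at 18.3 ± 0.889 CPM in wild-type mice (SD, n = 6) and at 14.3 ± 0.423 CPM in the 5 other mutants, with female mutant 3 at 20.9 CPM. Ptgs1 stood at 11.9 ± 0.928 and 8.81 ± 0.768 CPM, with female mutant 3 at 1.94 CPM. Fcgr2b stood at 3.59 ± 0.683 and 1.78 ± 0.362 CPM, with female mutant 3 at 3.48 CPM. The log2 fold change of Fcgr2b was -0.99 without female mutant 3 and -0.93 with it. None passed edgeR's test without that library (adjusted p = 0.136 for C1ra, Hnmt and Fcgr2b, 0.174 for Cyp11a1 and 0.271 for Ptgs1). Mpeg1 itself differs between the genotypes, so likeness to it favours genes that do the same.

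Ms4a15, a gene of the same cluster that was too low to be tested, had 61 counts in wild-type and 6 in mutant libraries, of which 41 came from male wild-type 13 and 15 from female wild-type 2, with 0 counts in 3 other wild-type libraries. Of the other fixed lists, interferon-induced genes had 10 of 13 higher in mutants (median log2 fold change 0.19). The list named other leukocytes had 4 of 5 lower (-0.23), and the striatal markers had a median of -0.77. Each had 0 called by edgeR, with 1, 1 and 6 genes at an unadjusted p under 0.05 in its test. Whether the genes named other leukocytes are also expressed by macrophages was not tested. The leukocyte gene with an unadjusted p under 0.05 in edgeR's test was Lsp1, with a log2 fold change of -0.91. Leaving out 1 library moved the interferon median to between -0.04 (without female mutant 1) and 0.38 (without female mutant 6), and to 0.05 without male mutant 10. The leukocyte median moved to between -0.33 (without male mutant 27) and -0.08 (without female mutant 3), and the striatal median to between -0.93 and -0.56. The median was 0.01 for neurons, 0.09 for astrocytes, -0.02 for oligodendrocytes, -0.02 for endothelium, 0.15 for blood, 0.20 for meninges and -0.11 for choroid plexus, with 0 called in each and 1, 3, 0, 0, 0, 0 and 1 genes at an unadjusted p under 0.05. Over the same omissions the sign of the median turned for neurons (-0.05 to 0.04), oligodendrocytes (-0.10 to 0.05), endothelium (-0.08 to 0.03) and blood (-0.02 to 0.39). The part of these tissues in the level of Mpeg1 was not tested.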
